A study of Mus musculus with 16 samples.

Results

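Transcripts of multipotent progenitors from mice labelled Tet2KO were compared with those from mice labelled WT. The comparison takes every library labelled MPP, 4 Tet2KO and 4 WT, which are 8 of the 16 libraries of the study, and every row of the authors' deposited table for that population, 23420 gene symbols. The other 8 libraries come from granulocyte-monocyte progenitors (GMP) and enter here only for the values set beside those of MPP. All means, log2 fold changes, standard errors (SE), p-values and adjusted p-values of single genes below are those of the authors' deposited table, made with DESeq2, and a positive log2 fold change is a higher value in Tet2KO.

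TET2 is a dioxygenase that oxidizes 5-methylcytosine in DNA, mostly at CpG dinucleotides, which is a step towards removal of the methyl mark at enhancers and promoters. Multipotent progenitors stand below the stem cell in the blood hierarchy and can still give rise to lymphoid, myeloid, erythroid and megakaryocytic cells. Inactivating TET2 mutations are common in clonal hematopoiesis and in myeloid malignancies, where progenitors expand and myeloid differentiation is skewed.

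The WT mice carried the genotype Tet2fl/fl, floxed alleles without a deletion named in the labels, and the Tet2KO mice the genotype Tet2-/-. All were 40 weeks old, each library came from 1 mouse, and 3 mice per genotype also gave a GMP library. The labels name no Cre driver, inducing agent or time of deletion. The sort took lineage-negative cells with Kit, Sca1 and CD48 but without CD150 from bone marrow that had been cleared of red cells and enriched for Kit. Each library started from 2 ng of total RNA, which was amplified, with an integrity number above 8. The deposited table gives 1 mean per gene over the 8 libraries, so single libraries, their depth and their spread are not analysed here, and every SE stands for the authors' model. The means summed to 9436210 normalized counts, of which the ribosomal RNA gene Rn45s took 6.71% and Xist 1.13%. Both genes were marked as outliers and carry no p-value.

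The genes of the sort gate were read first. Kit had a mean of 7542, the pan-leukocyte gene Ptprc 3977, Cd48 1026 and Ly6a, which encodes Sca1, 266 normalized counts. Slamf1, which encodes CD150, had 26.7, the T cell gene Cd3e 0.666 and Fcgr3, which encodes CD16, 19.3. Itgam, which encodes CD11b of mature myeloid cells, had 841 and was marked as an outlier. None of these genes was called, and the log2 fold changes of the 7 tested gate genes had a median of 0.04.

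Of 11859 tested genes, 73 (0.616%) were called at an adjusted p of 0.05, 41 (0.346%) higher and 32 (0.27%) lower in Tet2KO. Another 11131 symbols had a mean under 10 and no adjusted p, 3990 of them with a mean of 0. Symbols with a low mean above 0 could still carry a p-value. Tested genes here are those with an adjusted p. The authors marked another 430 genes as outliers, without a p-value. These are 3.50% of the 12289 genes with a mean of 10 or more and hold 11.0% of the normalized counts. Most tested genes moved little, with 40.6% within 0.1 of 0 on the log2 scale and 76.5% within 0.25. The median log2 fold change was -0.0038, and 5823 genes lay above 0 and 6036 below. A log2 fold change of 1 or more in either direction was found for 54 tested genes, and 26 of these were called. Without adjustment 1153 genes (9.72%) had a p under 0.05, 584 higher and 569 lower.

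The calls depended on the null distribution. The ratio of log2 fold change to SE had a robust spread of 1.15 over the tested genes, and after division by that spread 17 genes passed, 11 higher and 6 lower. Of the 69 called genes that the naming rule takes, 8 kept their call in every alternative in which they were tested, among them Bcam, Chdh, Mmp2, Pde2a, Sdc2 and Sox6. Near the threshold, Mettl9, Dpp4, Fam149a, Itpr2 and Gdap10 lay just inside, at adjusted p-values of 0.0472 to 0.0499, and Fhdc1, Serpinc1, Fau, Wdr1 and Rhob just outside, at 0.0509 to 0.0555 in the authors' deposited table.

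**Figure D1:**
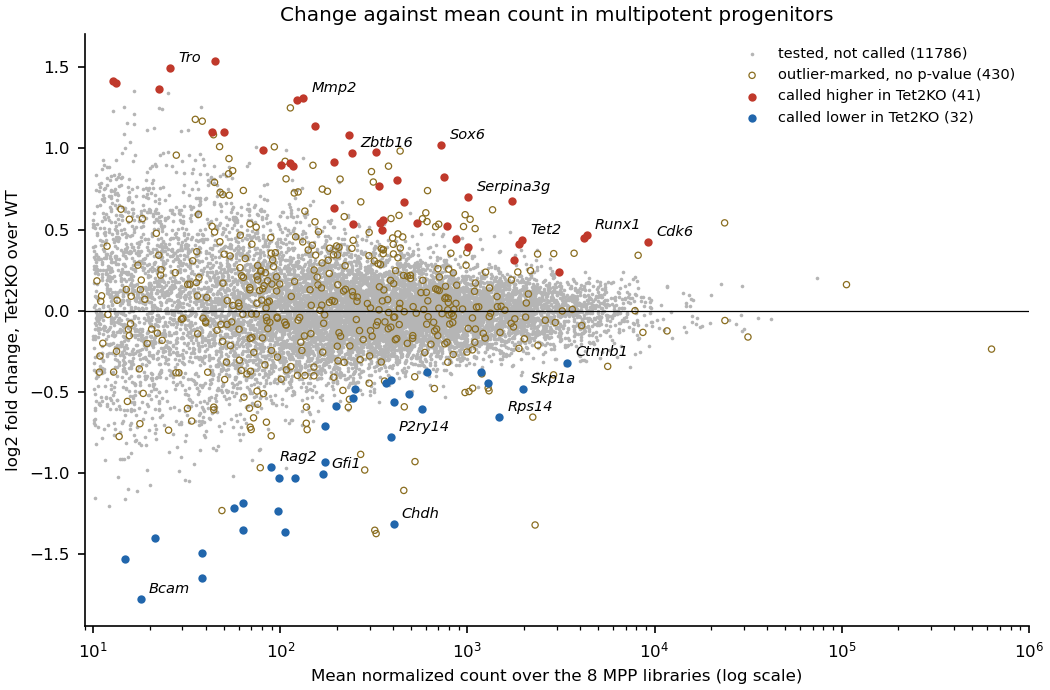
Log2 fold change of Tet2KO over WT against the mean normalized count over 8 libraries (log axis), one point per gene with a mean of at least 10. The 41 genes called higher and 32 called lower have means from 12.7 to 9183, and the cloud narrows from left to right.

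Precision followed the mean, and called genes came from all levels of expression. In the lowest bin, means of 10 to 30, the median SE was 0.368 and a gene at that SE needed a change of 2.51-fold to be called. In the highest bin, means of at least 3000, the median SE was 0.0935 and a 1.26-fold change sufficed. The share of genes called stayed between 0.503% and 0.641% in the bins up to 3000 and was 0.923% above, where 5 of 542 genes were called. The central 90% of log2 fold changes ran from -0.61 to 0.75 in the lowest bin and from -0.20 to 0.17 in the highest. A change of less than about 1.26-fold was thus not detectable for most genes at any level.

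**Figure D2:**
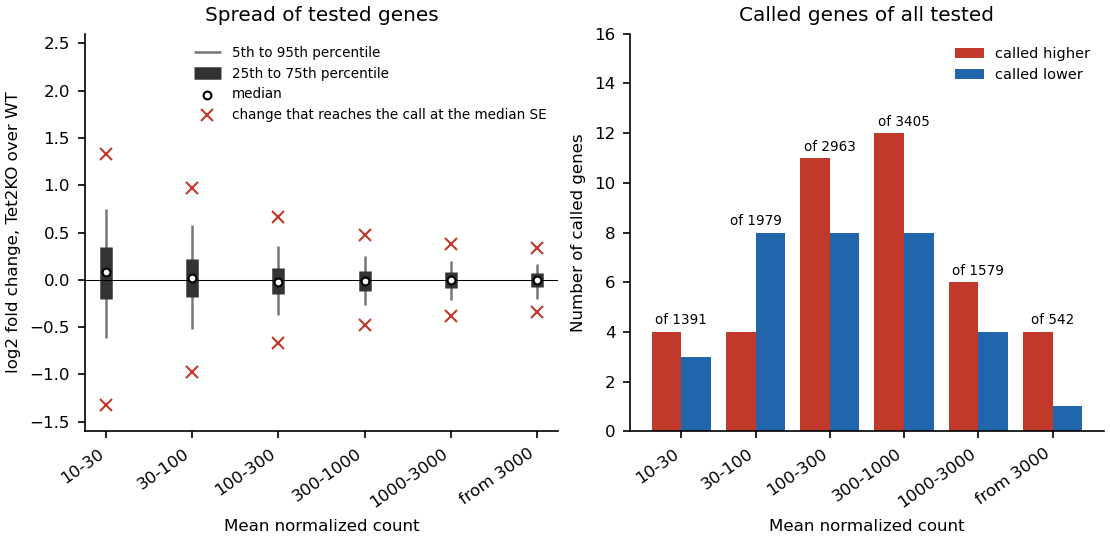
Left, quantiles of the log2 fold change of tested genes in bins of the mean normalized count, with crosses at the change that reaches the call at the bin's median SE (0.368 in the lowest bin and 0.0935 in the highest). Right, the number of called genes per bin beside the number tested.

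Tet2 itself was called higher, at a mean of 1962 and a log2 fold change of 0.44 (SE 0.099) in the authors' deposited table (adjusted p = 0.00551). The gene lies on chromosome 3 at 133463679 to 133545139 on the minus strand (mm10). The value covers the whole gene, including any exons outside a deleted part, so it does not check the labels, and the direction of each change rests on the name of the authors' deposited table. Of the 15 tested genes within 2 Mb of Tet2, 6 lay above 0 and 9 below, with a median of -0.03, and none was called by the authors' test, at an unadjusted p of 0.126 or more. The nearest tested neighbour, Ppa2, which encodes a mitochondrial pyrophosphatase, had a value of -0.12 (SE 0.17).

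The rest of the methylation machinery gave no call. TET2 has 2 paralogues in this table, of which Tet3 had a log2 fold change of 0.18 (SE 0.095, adjusted p = 0.53) and Tet1 of 0.09. The methyltransferase genes Dnmt1, Dnmt3a and Dnmt3b had values of -0.02, 0.05 and -0.02, and Uhrf1, which recruits DNMT1 to replicating DNA, of -0.02, all chosen after their values were seen. Of 17 tested genes of DNA methylation and demethylation, Tet2 was the 1 called, and 9 lay above 0 and 8 below.

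Transcription factors of blood lineages stood among the called genes. Runx1, a master regulator of definitive blood formation and a frequent target of leukemic mutations, rose in log2 fold change by 0.47 (SE 0.11, adjusted p = 0.00551) from a mean of 4337 in the authors' deposited table. Sox6, an SRY-box factor known from erythroid maturation, rose by 1.02 (SE 0.16, adjusted p = 2.16e-06) at a mean of 726. Zbtb16, which encodes the zinc finger protein PLZF of stem cells and innate lymphocytes, rose by 0.97 (SE 0.18, adjusted p = 8.64e-05) at a mean of 242. Gfi1, a repressor that restrains stem cell cycling and is needed for granulocytes and lymphocytes, fell by 1.00 (SE 0.23, adjusted p = 0.00743) at a mean of 169. Of 36 tested blood transcription factor genes these were the 3 called higher and the 1 called lower, with 24 above 0, 12 below and a median of 0.13 against -0.0038 over all tested genes. Over all tested genes 0.346% were called higher and 0.27% lower.

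Other nuclear factors also changed. Hmga2, an architectural chromatin protein of fetal stem cells, rose by 0.98 (adjusted p = 0.000292), and Tfec, an E-box factor of the MITF family, by 0.56 (adjusted p = 0.00405) in the authors' deposited table. Tfec was the 1 call among 31 tested E-box factor genes. The E-box factor genes Mitf (-0.42) and Tal1 (0.29) had unadjusted p-values of 0.0227 and 0.00262 and were not called. Etv5, an ETS factor induced by receptor and ERK signalling, fell by 0.93 (adjusted p = 0.0219). The other ERK feedback genes had the values -0.57 for Spry2 and -0.19 for Spred1 and were not called, and 6 of 9 tested members lay below 0. Ctnnb1, which encodes beta-catenin of adherens junctions and Wnt signalling, fell by 0.32 (adjusted p = 0.00752) at a mean of 3403. Of 307 tested zinc finger protein genes, Zfp280d (0.32) and Zfp105 (1.42) were called higher and none lower, 218 lay above 0 and 89 below, and the median was 0.07. Their called share, 0.651%, was close to the 0.616% over all tested genes. None of 19 tested Hox and partner genes was called (2 higher and 2 lower at an unadjusted p under 0.05), with values of -0.57 for Hoxa9, 0.46 for Hoxb3 and -0.76 for Hoxa2.

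Promoter sequences were read for the called genes, because TET2 acts on CpG dinucleotides. The RefSeq promoter table (GRCm38.p6, the mm10 assembly) held 59 of the 73 called genes and 9492 of the tested genes. For 4 called genes with a large ratio of log2 fold change to SE, the 250 bases before the outermost annotated start are printed 5′ to 3′ on the strand of the gene, with each CpG in capitals. Chdh and Sox6 lead the calls by adjusted p, and the promoters of Pde2a and Lpcat2 hold fewer CpGs than that of Chdh. They lie at chr14:30008750-30008999 (plus strand) for Chdh, chr7:116038745-116038994 (minus strand) for Sox6, chr7:101421441-101421690 (plus strand) for Pde2a and chr8:92855083-92855332 (plus strand) for Lpcat2.
Chdh: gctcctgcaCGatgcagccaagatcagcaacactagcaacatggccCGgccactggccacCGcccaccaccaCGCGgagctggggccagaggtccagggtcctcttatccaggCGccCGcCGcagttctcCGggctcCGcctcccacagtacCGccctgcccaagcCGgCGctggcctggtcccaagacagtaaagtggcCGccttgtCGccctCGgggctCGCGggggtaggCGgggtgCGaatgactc
Sox6: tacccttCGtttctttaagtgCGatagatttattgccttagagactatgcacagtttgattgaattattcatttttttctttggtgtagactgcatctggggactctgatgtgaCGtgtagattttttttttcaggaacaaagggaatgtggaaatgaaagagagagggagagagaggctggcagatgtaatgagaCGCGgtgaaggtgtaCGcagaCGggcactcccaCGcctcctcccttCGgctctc
Pde2a: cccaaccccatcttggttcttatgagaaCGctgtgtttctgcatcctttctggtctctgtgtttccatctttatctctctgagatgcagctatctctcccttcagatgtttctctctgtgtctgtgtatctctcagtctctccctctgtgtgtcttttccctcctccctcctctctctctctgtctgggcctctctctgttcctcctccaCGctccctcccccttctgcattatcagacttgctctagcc
Lpcat2: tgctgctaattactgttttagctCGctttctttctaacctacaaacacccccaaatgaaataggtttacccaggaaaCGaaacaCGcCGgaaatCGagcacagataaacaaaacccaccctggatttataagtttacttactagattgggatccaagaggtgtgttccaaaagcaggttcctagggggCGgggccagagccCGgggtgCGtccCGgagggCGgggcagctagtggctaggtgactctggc
The Chdh window holds 20 CpGs at a GC content of 69.2%, that of Sox6 9 at 45.2%, that of Lpcat2 10 at 51.2% and that of Pde2a 2 at 50.8%. Chdh was lower in Tet2KO, and the other printed genes were higher. Another called gene, not printed, was higher with 21 CpGs at 68%, and a further one was lower with 31 at 70.4%. In the printed windows fewer CpGs thus went with a rise, whereas the windows not printed held more than 20 CpGs in both directions. These windows are a part of the 59, and such a pairing was not tested.

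Promoters with few CpGs were counted in both directions of change. Over all 9492 tested genes with an entry the median was 16 CpGs, and 13.9% of the windows held 5 or fewer. Of the 31 windows of genes called higher, 10 (32.3%) held 5 or fewer, with a median of 10, and of the 28 windows of genes called lower, 10 (35.7%), with a median of 16.5. When tested genes were divided into 5 classes of about equal size by CpG count, 1.18% were called among promoters with 0 to 7 CpGs, 12 higher and 10 lower, and between 0.317% and 0.709% in the other classes. The first class also had a lower median mean, 122 normalized counts against 460 in the last, and its part in these shares was not tested. The counts are descriptions, and methylation was not measured in these files.

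Short motifs were searched in the same windows on both strands. The E-box CANNTG, of which CACGTG is a special case, lay in 56.6% of all windows, in 22 of 31 windows of genes called higher (71.0%) and in 14 of 28 of genes called lower (50%). The GATA motif AGATAA lay in 5.86% of all windows, in 6 (19.4%) of those called higher, including Pde2a and Lpcat2, and in 2 (7.14%) of those called lower. CACGTG was found in 8.54% of all windows, 3 of those called higher and 2 of those called lower. The RUNX motif TGTGGT was in 10.8%, 2 and 2, the ETS motif GGAAGT in 24.3%, 5 and 4, and the TATA motif TATAAA in 6.30%, 5 and 2. None of these shares was tested, and a match does not show that a factor binds.

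Some called genes act in adhesion and the extracellular matrix. Mmp2, a metalloproteinase that cleaves basement membrane collagen, rose by 1.31 (SE 0.26, adjusted p = 0.000363) and Sdc2, a heparan sulfate proteoglycan that presents growth factors, by 1.30 (SE 0.25, adjusted p = 0.000188), from means of 133 and 123 in the authors' deposited table. Scube3, a secreted EGF-domain protein, rose by 1.14, Dsg2, a desmosomal cadherin, by 1.10 and Tro, trophinin, by 1.49. The laminin receptor gene Bcam fell by 1.77 (adjusted p = 0.00253) at a mean of only 17.9, and Emp1, an epithelial membrane protein, by 1.36. In the matrix and metalloproteinase list, 44 of 139 genes were tested and 91 had a mean under 10. Mmp2 and Sdc2 were its only calls, where 0.616% of all tested genes were called. Of its tested members 27 lay above 0 and 17 below, and the median was 0.11. Sdc4 (-1.05) and Sdc1 (-0.74), other syndecans, had values on the other side and were not called, as seen after the fact. Of 25 tested integrin and adhesion genes none was called (3 higher and 3 lower at an unadjusted p under 0.05), at values of 0.44 for Itga2b, 0.30 for Itga5 and -0.94 for Itgb5.

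A pair of receptor tyrosine kinase genes usually read as markers of vessel wall or stroma were called higher. Tie1, an endothelial receptor, rose by 0.77 (adjusted p = 0.0138) at a mean of 337, and Pdgfrb, the platelet-derived growth factor receptor of pericytes, by 0.83 (adjusted p = 0.0045) at a mean of 751 in the authors' deposited table. Several defining genes of those cells were low. Of 21 stromal and endothelial markers 12 had a mean under 10, among them Cdh5 (3.04), Kdr (5.61), Col1a1 (0.265), Pdgfra (0.375) and Lepr (3.12). Others had a mean of 10 or more. The 6 tested markers, Tie1 and Pdgfrb among them, had a median mean of 259, and 3 more were marked as outliers. Of the 6 tested markers 4 lay above 0 and 2 below, and those other than Tie1 and Pdgfrb were not called. The called share over all tested genes was 0.616%. The part of such cells in these values was not tested.

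Receptors and second messengers changed in both directions. Pde2a, which hydrolyses cyclic AMP and GMP, rose by 1.08 (SE 0.20, adjusted p = 8.64e-05) and Pde4a, a cyclic AMP phosphodiesterase, by 0.54 (adjusted p = 0.023), the only calls of 24 tested phosphodiesterase and cyclic AMP genes. Itpr2, a calcium channel of the endoplasmic reticulum opened by inositol trisphosphate, rose by 0.45, and Mrvi1, a substrate of cyclic GMP-dependent kinase that binds such channels, fell by 1.35 (adjusted p = 0.0121). Inpp4b, a phosphatase of phosphatidylinositol 3,4-bisphosphate, rose by 0.91 (adjusted p = 0.0172) as the 1 call of 51 tested phosphoinositide enzyme genes. All 3 G protein-coupled receptors called of 19 tested were lower in the authors' deposited table. P2ry14, the receptor for UDP-glucose on progenitors, fell by 0.78 (adjusted p = 0.00152), Ptgir, the prostacyclin receptor, by 1.49 and the homing receptor Ccr9 by 1.22. Of the 19 tested members 11 lay above 0, and the median was 0.02. The called share over all tested genes was 0.616%, and 0.27% were called lower.

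**Figure D3:**
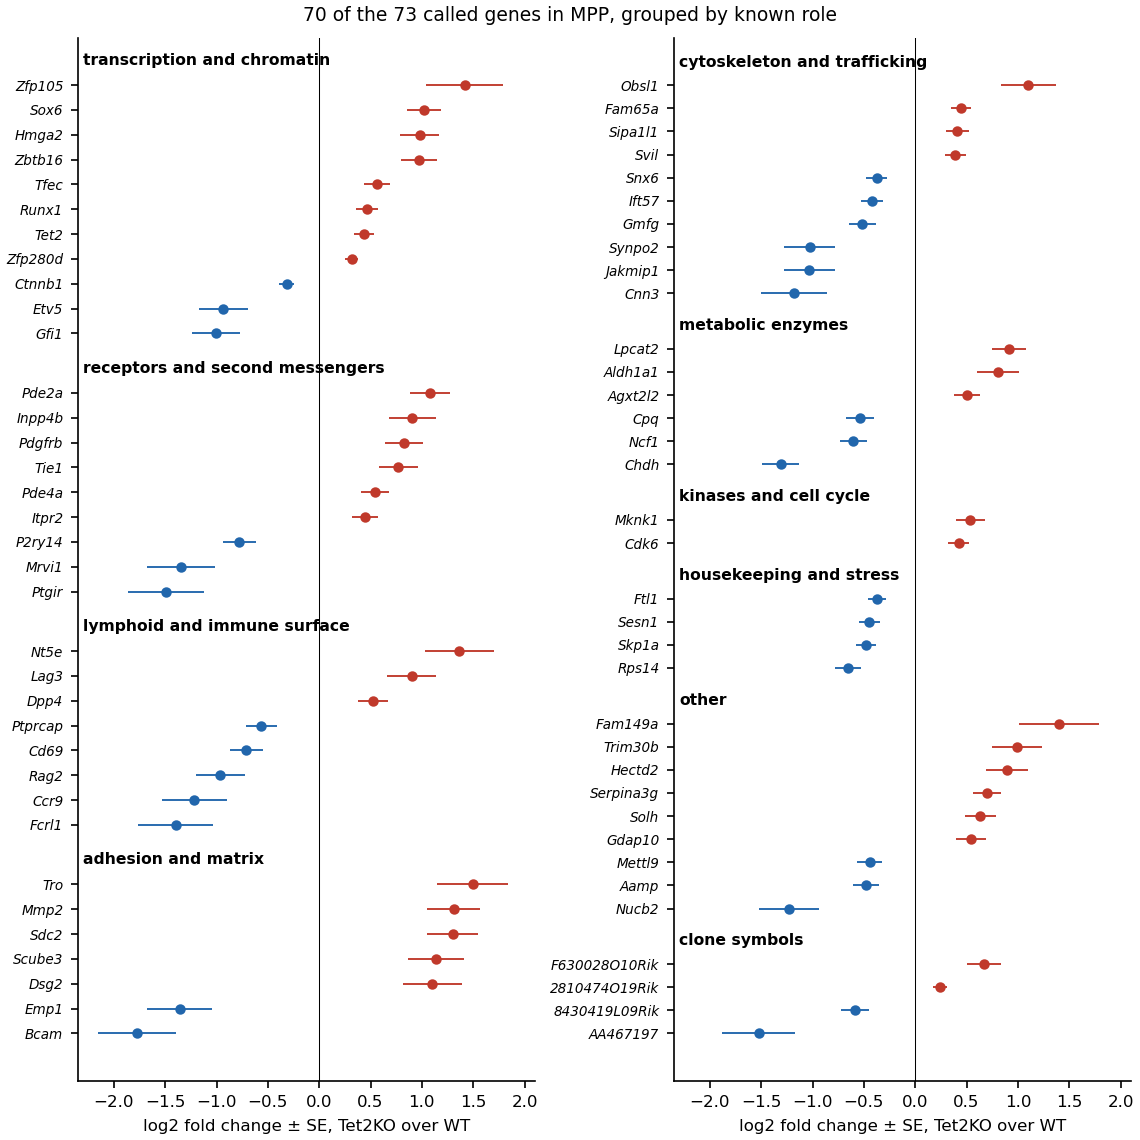
Log2 fold change with its SE for 70 of the 73 called genes, grouped by known role, from the authors' deposited table. Red points are genes called higher and blue points genes called lower in Tet2KO, and the groups were formed after the values were seen.

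Both called genes of lymphoid priming were lower. Rag2, part of the recombinase of antigen receptor genes, fell by 0.96 (SE 0.24, adjusted p = 0.0169) at a mean of 89.3, and Ccr9, a receptor of thymus-homing progenitors, by 1.22 (SE 0.32, adjusted p = 0.0299) at a mean of 56.6 in the authors' deposited table. Of 17 tested lymphoid priming genes these 2 were called, 14 lay below 0 and 3 above, and the median was -0.12. The share called lower over all tested genes was 0.27%. Il7r, the receptor for interleukin 7, had a value of -0.57 and Rag1 of -0.23, and neither was called. The list holds 3 genes marked as outliers, and all lay below 0. Dntt, which encodes the terminal transferase of early lymphoid cells, had a log2 fold change of -1.32 (SE 0.20) at a mean of 2300, Notch1 one of -0.48 and Flt3, the receptor that marks lymphoid-primed progenitors, one of -0.39. In bulk RNA from a sorted gate, fewer cells of a kind and less RNA per cell cannot be told apart.

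Other lymphocyte genes were called in both directions. Fcrl1, an Fc receptor-like protein of B cells, fell by 1.40 at a mean of 21.4, Cd69, an early activation antigen, by 0.71 (adjusted p = 0.0062) and Ptprcap, which associates with CD45, by 0.56. Nt5e, the ecto-nucleotidase CD73, rose by 1.37 at a mean of 22.5, Lag3, an inhibitory receptor, by 0.90 and Dpp4, the peptidase CD26, by 0.52 in the authors' deposited table. Of 16 B cell markers 11 had a mean under 10, including Pax5 (1.32) and Ms4a1 (0.507). Of 23 T and NK cell markers 12 had a mean under 10, including Cd3e (0.666), and of the 10 tested none was called (1 higher and 1 lower at an unadjusted p under 0.05), with values of -0.86 for Lck and 1.15 for Klrk1.

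Myeloid priming genes could be judged only in part. Gfi1 was the 1 call of 9 tested members. Lyz2, lysozyme, had a value of -0.28 (adjusted p = 0.24) and Cebpa, the factor that starts granulocyte-monocyte differentiation, of 0.03. The 8 members marked as outliers all lay above 0, among them the granule genes Mpo (0.54, SE 0.33, mean 23699) and Elane (0.35, SE 0.38) and the transcription factor Irf8 (0.47, SE 0.24), named after their values were seen. With the marked members the median of the list was 0.16 in place of -0.08. Late neutrophil genes were low, with 7 of 14 under a mean of 10 and S100a8 at 10.1. Erythroid genes were marked as outliers in 15 of 23 cases, so that 3 were tested, and Alas2 had a value of 0.09 and Tal1 of 0.29. The globin genes Hba-a1 and Hba-a2 are listed at 0.

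Megakaryocyte and stem cell genes held 1 call each. Of 17 tested megakaryocyte genes 13 lay above 0 and 4 below, 1 was called, higher, and the median was 0.24. Itga2b, the integrin CD41, had a value of 0.44 (adjusted p = 0.15) and its partner Itgb3 of 0.53 (adjusted p = 0.25), while the platelet chemokine Pf4 had a value of -0.92 at a mean of 11.5. Platelet genes of mature cells such as Ppbp (3.88) and Tubb1 (3.25) had means under 10. Of 23 tested stem cell genes 1 was called, higher, 11 lay above 0 and 12 below, and the median was -0.02, which turned to 0.06 when genes were compared with the median of their class of transcript length. Mecom, a stem cell transcription factor, had a value of -0.53 (adjusted p = 0.20), whereas Meis1 (0.12) and Procr (-0.03) lay near 0.

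Cell cycle genes gave 1 call. Cdk6, the kinase that drives progenitors through G1, rose by 0.42 (SE 0.10, adjusted p = 0.0121) at a mean of 9183, or 797 normalized counts per kilobase of its longest transcript, close to the 740 of Runx1. The other 11 tested G1 cyclins and inhibitors were not called, and Ccnd1 (-1.11, SE 0.23) was marked as an outlier. Of 42 tested G2 and M phase genes 35 lay below 0, with a median of -0.10 and values of -0.23 for Tpx2, -0.44 for Aurka and -0.21 for Ckap2. Of 46 tested S phase genes 30 lay below 0, with a median of -0.04. Neither list held a call by DESeq2, and at an unadjusted p under 0.05 the first had 4 members lower and none higher and the second 1 in each direction.

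**Figure D4:**
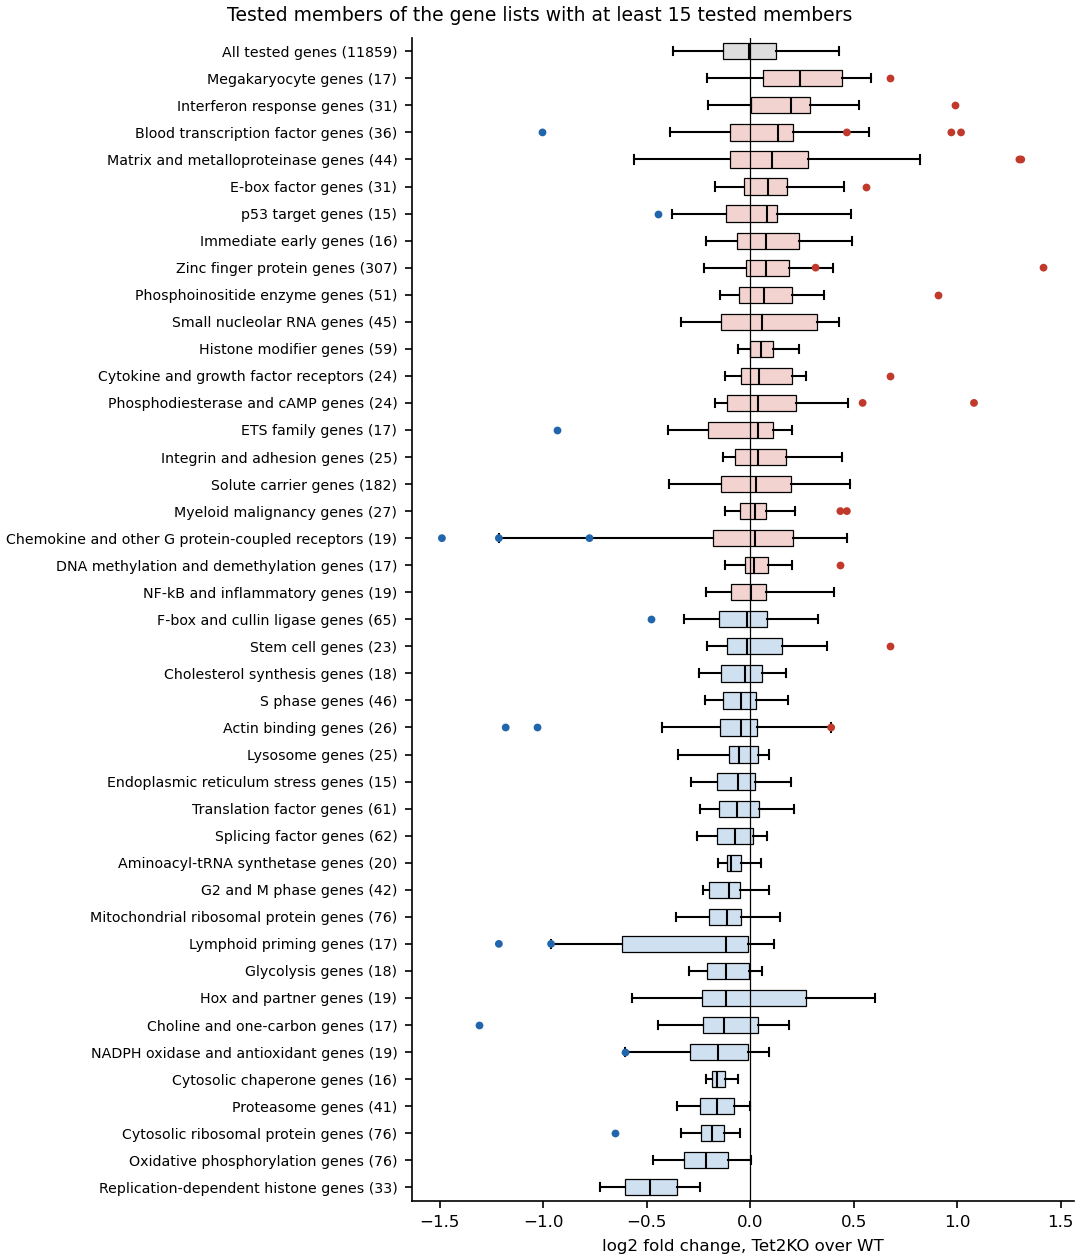
Log2 fold change of the tested members of each gene list with at least 15 tested members, ordered by median, with all 11859 tested genes on top. Boxes span the 25th to 75th percentile, whiskers the 5th to 95th, points are called members, and the histone list lies lowest at a median of -0.49.

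Lists of the machinery of gene expression and respiration had medians below 0. All 33 tested replication-dependent histone genes lay below 0, with a median of -0.49, none called and 13 at an unadjusted p under 0.05, and values of -0.85 for Hist2h3b and Hist1h2ac and -0.71 for Hist1h3f. The 14 histone genes marked as outliers lay below 0 as well. Of 76 tested cytosolic ribosomal protein genes 74 lay below 0, with a median of -0.19. Rps14 alone was called and fell by 0.65 (SE 0.13) in the authors' deposited table (adjusted p = 0.000363), a value that is uncertain because ribosomal protein and histone genes share reads with near copies. Of 76 oxidative phosphorylation genes 70 lay below 0, with a median of -0.21, and values of -0.67 for Ndufa1, -0.36 for Cox4i1 and -0.47 for Ndufa4. Without adjustment 19 of them had a p under 0.05, all lower, and none was called. Proteasome genes (39 of 41 below 0, median -0.16), mitochondrial ribosomal protein genes (63 of 76, -0.11), cytosolic chaperones (15 of 16, -0.16), translation factors (40 of 61, -0.07) and splicing factors (44 of 62, -0.07) lay on the same side, also without a call. At an unadjusted p under 0.05 they had 3, 5, 1, 4 and 1 members lower, in that order, and 0, 1, 0, 1 and 0 higher. Over all 11859 tested genes 50.9% lay below 0, and at an unadjusted p under 0.05 569 were lower and 584 higher.

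The length of the transcript moved with these lists. Tested genes were divided into 5 classes of equal size by the longest annotated transcript, and the median log2 fold change rose from -0.08 in the shortest class (up to 1980 bases) to 0.04 in the longest (from 5249 bases), with 62.7% and 38.2% of genes below 0. Among genes with a mean of at least 3000, 45 of 51 in the shortest class lay below 0. In the shortest class 1 gene was called higher and 7 lower, and in the longest 18 higher and 4 lower. In GMP, whose libraries share mice with those of MPP, the medians ran from -0.04 to 0.04. Over 11749 genes Spearman's rho of length and log2 fold change was 0.177, a description across genes that are not independent. The median longest transcript was 618 bases for the histone list, 1100 for the ribosomal and 1186 for the oxidative phosphorylation list. When each gene was compared with the median of its length class, a step chosen after the data were seen, the medians of these lists were -0.41, -0.12 and -0.14, and 64 genes were called. Of the 69 called genes that the naming rule takes, 57 kept the call. The part of length in the list values beyond this was not tested.

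**Figure D5:**
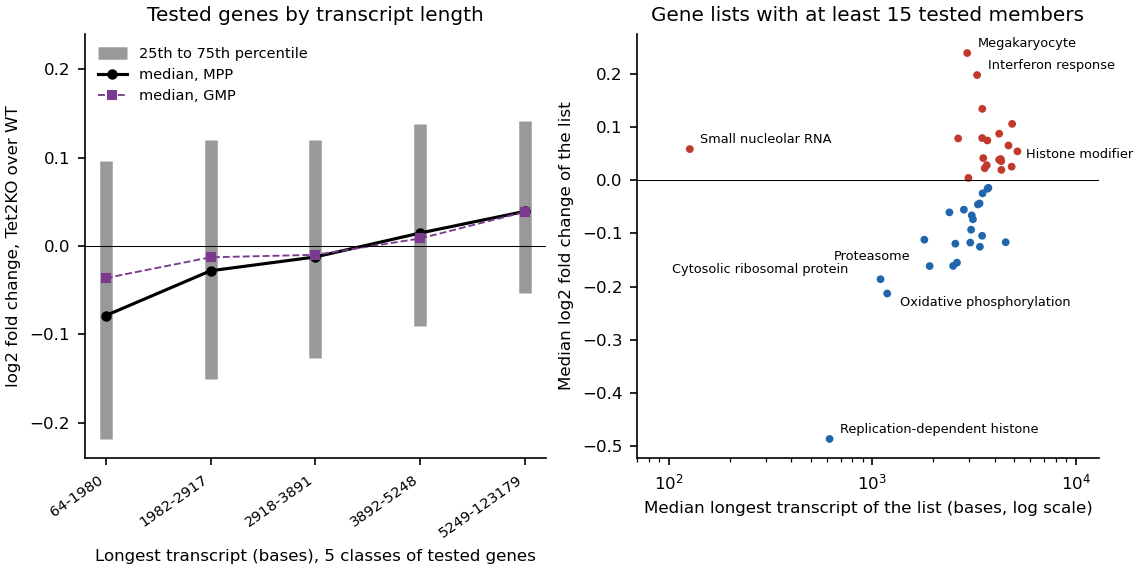
Left, median log2 fold change (Tet2KO over WT) of tested genes in 5 classes of transcript length for MPP and GMP, with the 25th to 75th percentile for MPP. Right, median of each gene list against the median length of its members (log axis), where the histone list lies at 618 bases and -0.49.

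Metabolic and housekeeping lists held at most 1 call each, where 0.616% of all tested genes were called. Chdh, choline dehydrogenase of mitochondria, which makes betaine for one-carbon metabolism, fell by 1.31 (SE 0.18, adjusted p = 5.65e-09) from a mean of 403, where the authors' deposited table has its smallest adjusted p. It was the 1 call of 17 tested choline and one-carbon genes, and the betaine pathway enzyme Aldh7a1 had a value of -0.45 (adjusted p = 0.19) and Ahcy of -0.33. Ncf1, the p47phox subunit of the phagocyte NADPH oxidase, fell by 0.60 (adjusted p = 0.00352) and was the 1 call of 19 oxidase and antioxidant genes. The ferritin light chain gene Ftl1 fell by 0.37, the ubiquitin ligase subunit gene Skp1a by 0.48 and Sesn1, a sestrin induced by p53, by 0.45 in the authors' deposited table. The Ncf1, Ftl1 and Skp1a values are uncertain, since reads shared with any close copies were not examined. Lpcat2, which makes platelet-activating factor, rose by 0.92 (SE 0.17, adjusted p = 8.64e-05) and Aldh1a1, a retinaldehyde dehydrogenase, by 0.81 (adjusted p = 0.0202). None of 18 tested glycolysis genes, 14 hypoxia genes or 18 cholesterol synthesis genes was called, and at an unadjusted p under 0.05 they had 0, 1 and 0 members higher and 2, 2 and 1 lower.

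Cytoskeletal and trafficking genes were called in both directions. Synpo2 (-1.03) and Cnn3 (-1.18), which bind actin filaments, fell, and supervillin, encoded by Svil, rose by 0.39 in the authors' deposited table. These were the 3 calls of 26 tested actin binding genes, where 0.616% of all tested genes were called. Jakmip1 fell by 1.03, Gmfg, a regulator of branched actin, by 0.51, Ift57 by 0.43 and Snx6, a sorting nexin of the retromer, by 0.38. Obsl1 rose by 1.10, Fam65a by 0.45 and Sipa1l1 by 0.41. The kinase gene Mknk1, whose product phosphorylates eIF4E, rose by 0.54. Nucb2 fell by 1.23, Cpq by 0.54, Aamp by 0.48 and Mettl9 by 0.44, and Fam149a, Hectd2, Serpina3g, Solh, Gdap10 and Agxt2l2 rose by 0.50 to 1.40.

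Interferon response genes lay above 0 in 23 of 31 tested cases, with a median of 0.20. Trim30b, of a family of inducible ubiquitin ligases, was the 1 call and rose by 0.99 (adjusted p = 0.0138) in the authors' deposited table, a value that is uncertain because the Trim30 genes are close copies. Gbp7 (0.38), Gbp2 (0.40) and Oas2 (0.54) were not called, and no member below 0 had an unadjusted p under 0.05, against 9 above. This count holds for the listed genes only, and over all 11859 tested genes 584 were higher and 569 lower at that threshold. The guanylate-binding protein gene Gbp6 is not on the list and had a value of -0.92 (SE 0.33, unadjusted p = 0.00615 by DESeq2), also without a call. The 14 tested MHC genes split 7 to 7 without a call, with 3 higher and 0 lower at an unadjusted p under 0.05. Nlrc5, the activator of class I genes, had a value of 0.44 (adjusted p = 0.083), Ciita, the activator of class II genes, of 1.01 and H2-Eb1 of 0.99. The class II genes Cd74 (0.74), H2-Aa (0.57) and H2-Ab1 (0.52) were marked as outliers. Of the 4 marked genes of the MHC list 3 lay above 0 and 1 below. Histone modifier genes lay above 0 in 44 of 59 cases at a median of 0.05, with no call and 2 higher at an unadjusted p under 0.05, and their median longest transcript was 5180 bases.

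Called genes were mostly protein-coding, 39 higher and 32 lower of 11255 tested. Noncoding classes lay more often above 0 than the 49.1% over all tested genes, with 56 of 79 long intergenic RNAs, 82 of 128 antisense RNAs and 74 of 117 processed transcripts above 0, and 1, 1 and 0 called. Their median means were 63.3, 33.0 and 51.6, against 261 over all tested genes. Tested genes of low mean also lay more often above 0, with 789 of 1391 at means of 10 to 30 and 1025 of 1979 at 30 to 100. The part of expression level was not tested. Values of antisense genes are uncertain, because reads of overlapping genes cannot be told apart without a stated strand setting. The share of tested genes called ran from 0.206% on chromosome 11 to 1.31% on chromosome 18 (4 of 305), against 0.616% over all. These shares were not tested.

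Some large changes were not called or not tested. Among genes with a mean of at least 50, the adhesion kinase gene Ptk2 had a log2 fold change of -1.02 (SE 0.34, adjusted p = 0.17), the RNA-binding protein gene Rbm47 of -0.97 (SE 0.28, adjusted p = 0.082) and the guanylate-binding protein gene Gbp6 of -0.92 (SE 0.33) in the authors' deposited table (adjusted p = 0.25). Met, the hepatocyte growth factor receptor, had a value of 0.94 (SE 0.29, adjusted p = 0.12), Gulp1, an engulfment adaptor, of 0.91 and Gprin3 of 0.89. Of the outlier-marked genes 235 lay above 0 and 195 below. Among all 430 of them, 8 (1.86%) had a ratio of log2 fold change to SE beyond the smallest of a called gene, 3.61, against 0.616% of all tested genes. Whether or not they passed that ratio, the 5 largest changes per direction at a mean of 100 or more included Dntt and Ccnd1, given above. The others had values of -1.37 for the myeloid lectin Cd33, -1.35 for Igf2r, the mannose 6-phosphate receptor, and -0.98 for Hnf4a, and 1.25 for Clec1a, 0.98 for Emilin2, 0.89 for the monocyte chemokine receptor Ccr2, 0.86 for Ffar2 and 0.81 for Clca1. The status word is the authors' own, and values of single libraries behind it are not analysed here.

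The GMP table gives values for the same genes, from libraries that share mice with those of MPP. Of the called genes, Mmp2 had log2 fold changes of 1.31 in MPP and 1.50 in GMP, Chdh of -1.31 and -0.61, P2ry14 of -0.78 and -0.71, and Etv5 of -0.93 and -1.30 in the authors' deposited tables. Emp1 (2.77) and Bcam (0.517) had GMP means under 10 and carry no adjusted p there. By the test of the difference itself, 8 of 17660 genes (0.0453%) differed between the populations, among them 3 genes called in MPP. Pde2a had 1.08 in MPP and 0.10 in GMP, Sesn1 -0.45 and 0.15, and Mrvi1 -1.35 and 0.94 in the authors' deposited tables, the last at a GMP mean of only 9.85. The number rose to 44 when errors were taken as correlated at 0.3 and to 17 with an empirical null.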

How the data were processed

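The authors' deposited table for multipotent progenitors compares Tet2KO with WT for 23420 gene symbols and holds no values per library, so that depth per library is unknown and no model was refitted. Per the submitters' processing notes, STAR, the mm10 build and DESeq2 were used. No source used here states the read counter, its strand setting or the annotation. The deposited mean per gene is a normalized signal over the 8 libraries, per the file headers. Each log2 fold change (Tet2KO over WT), standard error (SE), p-value and adjusted p is the authors' own, as deposited. No source used here states whether the authors shrank the fold changes. The largest SE was 0.388, and the size of a change in weakly expressed genes is therefore uncertain. Recomputation gave the deposited p-value, from the ratio of log2 fold change to SE against a two-sided normal distribution, within 3.05e-07, and the deposited adjusted p as the Benjamini-Hochberg value over 11859 genes, within 2.4e-05.

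A gene was called where its deposited adjusted p was 0.05 or less. To compare with granulocyte-monocyte progenitors (GMP), the GMP log2 fold change was subtracted and divided by the combined SE (the square root of the sum of squares), two-sided, with Benjamini-Hochberg adjustment over 17660 genes, and took the errors as independent. The 17660 genes had a p-value in both populations, also where the mean was under 10. Calls and the difference were tested on simulated data. Lists and properties were described by counts and medians, with no test. Positions and transcript lengths come from the GENCODE annotation of mm10, matched by symbol or synonym for 99.1% of tested genes, and promoters from RefSeq (GRCm38.p6). The 27 symbols that a spreadsheet had turned into dates (18 tested, 0 called) stayed out of steps that use names. Scripts ran in Python 3.11.15. Statistics used scipy 1.17.1, tables pandas 2.3.3 over numpy 2.4.6, and plots matplotlib 3.10.9.

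The members and lists were chosen with earlier results of these data known. Named are Tet2 and its neighbours within 2 Mb, the called genes whose symbols are not clone numbers, the 5 genes on either side of the threshold, the 10 genes that take the most counts, up to 4 called members of a list or else the 3 of largest absolute ratio of log2 fold change to SE, and, per direction, 5 large uncalled genes (mean of at least 50) and 5 large genes without a p-value (mean of at least 100). Other members are examples picked after their values were seen, as were the role groups of called genes. A few genes taken by this rule are left out.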

Additional observations from a re-analysis of the deposited data

Results flagged for a closer look

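For 4 named genes the change in MPP differed from the change in GMP by a test of the difference itself, with Benjamini-Hochberg adjustment over 17660 genes. The errors were taken as independent, although 3 mice per genotype gave both libraries. For Mrvi1 the log2 fold change in MPP minus that in GMP was -2.29 (SE 0.49, adjusted p = 0.0206), for Rbm47, which was not called in MPP, -1.65 (SE 0.36, adjusted p = 0.0206), for Sesn1 -0.59 (SE 0.13, adjusted p = 0.0206) and for Pde2a 0.98 (SE 0.23, adjusted p = 0.0441). Mrvi1 had a mean of 9.85 in GMP.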

How the results depend on the processing

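Of 73 called genes (41 higher, 32 lower), 36 (20 and 16) passed an adjusted p of 0.01, 17 (11 and 6) an empirical null, 26 (12 and 14) a minimum absolute log2 fold change of 1 and 17 (11 and 6) the Holm adjustment. With a minimum mean of 100, 21 genes were lower. The 8 genes that differed between MPP and GMP became 44 with errors correlated at 0.3 and 17 with an empirical null. Comparison within classes of transcript length, chosen after seeing the data, gave 64 calls, 60 of them shared. Leaving out single mice was not run. No paired analysis was possible because the deposited table holds no values per library. The depth per library is unknown. The sign of the median flipped in at most 9 of the 53 lists recomputed, under a minimum mean of 50.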
